A study of Mus musculus with 16 samples.

Results

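NF-κB is a family of dimeric transcription factors, and the transcripts described here are those of its 5 subunits (*Nfkb1*, *Nfkb2*, *Rel*, *Rela* and *Relb*) and of 5 proteins that restrain or tune them (*Nfkbia*, *Nfkbib*, *Nfkbie*, *Nfkbiz* and *Tnfaip3*). The rule names them for their role in the pathway and uses no measured value, although earlier results of these data were known when it was set, and all 10 were found among the 23356 genes of the expression table. The table came from RNA-seq of mouse bone marrow-derived dendritic cells (BMDCs), which are bone marrow cells grown with GM-CSF and IL-4. The cells were untreated (NT) or stimulated with cyclic di-GMP (c-di-GMP, a bacterial second messenger that activates STING) at 25 µg/ml, and both were kept for 18 h. All mice were on the C57BL/6 background: wild-type (WT), *Tmem173*-/- (lacking STING), *Irf1*-/- (lacking the transcription factor IRF1), and *Irf3/7*-/- (lacking IRF3 and IRF7). The labels give no age of the mice. The knockouts are present in every cell of the animal, so any cell of the culture carries them. There are 16 samples in the labels, in pairs for 8 conditions, and the table holds 1 pooled value per condition.

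In a resting cell the inhibitors of the IκB family (encoded by *Nfkbia*, *Nfkbib* and *Nfkbie*) hold NF-κB dimers in the cytoplasm. An activated IκB kinase marks the inhibitors for destruction, and the dimers enter the nucleus. Among the genes they switch on are those of some, though not all, of their own inhibitors, a classic negative feedback loop. STING, once it has bound a cyclic dinucleotide, recruits the kinase TBK1 and is known to lead to both IRF3 and NF-κB activity. NF-κB in dendritic cells is known for its part in maturation, that is, in the expression of costimulatory molecules and cytokines.

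All levels are FPKM (sequenced fragments per length of transcript, scaled to the size of the library), which allows genes to be compared, and each carries the interval the authors' software gave it. For the 10 genes the interval reached 22.5% to 39.0% of the level to either side, with a median of 24.9%, and all 80 values had the status OK. Since the 2 samples of a condition were pooled before deposition, there is no spread between replicates, no test of significance can be made, and differences are read against these intervals. A difference was called where it exceeded 2-fold on the log2(FPKM + 0.1) scale, the 2 intervals were apart, and the gene reached 1 FPKM in at least one of the 2 conditions. A log2 difference below is on that scale, and the interval behind it in brackets combines those of the conditions compared.

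The targeted genes were read first. *Tmem173* was at 103 FPKM in untreated and 118 in treated WT BMDCs, against 8.97 and 7.49 in *Tmem173*-/- BMDCs. *Irf1* was at 149 and 245 FPKM in WT BMDCs and at 25.9 and 116 in *Irf1*-/- BMDCs. In treated *Irf1*-/- BMDCs its interval (82.8 to 149 FPKM) overlapped that of untreated WT BMDCs (113 to 185 FPKM). In untreated and treated *Tmem173*-/- BMDCs *Irf1* was at 24.1 and 23.3 FPKM. *Irf7* was at 15.2 and 687 FPKM in WT BMDCs and at 1.07 and 4.97 in BMDCs labelled *Irf3/7*-/-. *Irf3* was at 19.9 and 15.8 FPKM in WT BMDCs. It was lower, at 7.74 FPKM, in the untreated condition labelled *Irf3/7*-/-, but stood at 20.2 FPKM in the treated one, so *Irf3* went against that label while *Irf7* did not. The FPKM counts the whole gene, including any exon outside a deleted part. The cell type label was read through its markers. *Cd74*, a class II chaperone, was at 3336 to 4983 FPKM over the conditions. The summed level of 7 dendritic cell genes was between 4246 and 6030 FPKM, and *Cd74* made up most of it. *H2-Ab1* was at 278 to 890 FPKM and *Itgax* at 135 to 369 FPKM. The others were lower, *Zbtb46* at 11.6 to 23.0 FPKM, *Dpp4* at 3.01 to 7.78 and *Flt3* at 1.17 to 2.75. *Cd209a* was below 1 FPKM in 5 conditions. The cultures also differed in markers of other cells. The summed level of 9 T and NK cell genes was 734 and 710 FPKM in untreated and treated WT BMDCs, 1.01 and 0.909 in *Tmem173*-/- BMDCs, where 0 of the 9 reached 1 FPKM, 20.1 and 30.6 in *Irf1*-/- BMDCs, and 764 and 2300 in BMDCs labelled *Irf3/7*-/-. The sum of 7 neutrophil genes was 20003 and 14533 FPKM in *Tmem173*-/- BMDCs, against 1407 to 4015 in the other 6 conditions. The sum of 6 macrophage genes was 641 and 596 FPKM in *Tmem173*-/- BMDCs, 178 and 414 in WT BMDCs, 204 and 148 in *Irf1*-/- BMDCs, and 158 and 325 in BMDCs labelled *Irf3/7*-/-. The genes within a sum did not always move the same way between conditions. In bulk RNA, fewer cells of a type and less RNA per cell cannot be told apart.

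At rest, the WT levels of the 5 subunits ran in the order *Nfkb1* (124 FPKM), *Nfkb2* (92.7), *Relb* (52.4), *Rel* (41.6) and *Rela* (31.5). *Nfkb1* and *Nfkb2* encode the precursors p105 and p100, which act as inhibitors until they are processed to the DNA-binding proteins p50 and p52. The intervals of *Nfkb1* and *Nfkb2* overlapped, and so did those of *Relb* and *Rel* and of *Rel* and *Rela*, so the neighbours in this order were set apart only between *Nfkb2* and *Relb*. After c-di-GMP *Nfkb2* stood above *Nfkb1* in WT and *Irf1*-/- BMDCs and BMDCs labelled *Irf3/7*-/-, within overlapping intervals, whereas *Nfkb1* remained the first in *Tmem173*-/- BMDCs. The 5 genes whose proteins restrain or tune NF-κB are called inhibitors here for short. A higher level of one of them, *Nfkbiz* included, was not read as more inhibition. Among these 5 *Nfkbia* was the highest (201 FPKM in untreated WT BMDCs) and *Nfkbiz* the lowest (2.49 FPKM) in each of the 8 conditions. The summed level of the subunits went from 343 to 578 FPKM in WT BMDCs with c-di-GMP, and that of the 5 inhibitors from 346 to 767 FPKM. In *Tmem173*-/- BMDCs the same sums were 222 and 239 FPKM for the subunits and 298 and 276 FPKM for the inhibitors.

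**Figure D1:**
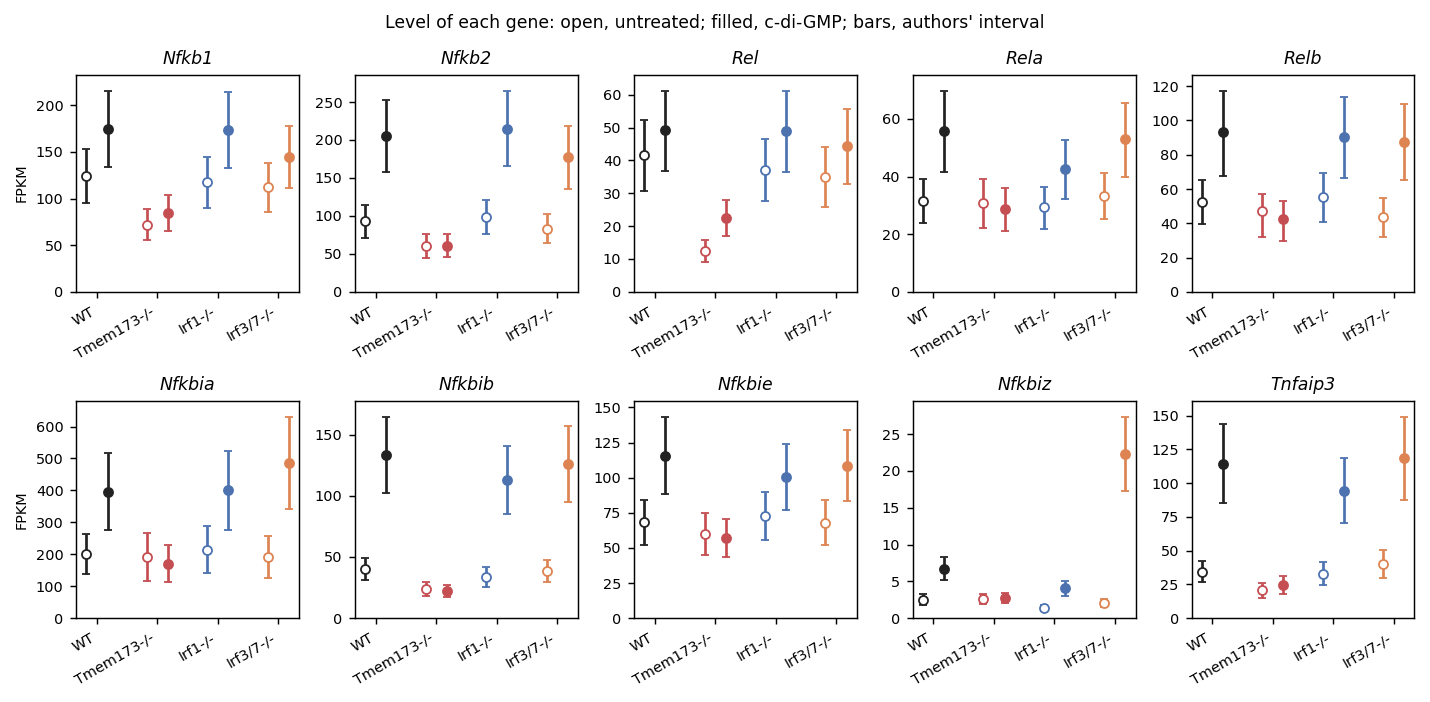
FPKM (y axis, from 0, a separate scale per gene) of the 10 NF-κB genes in the 4 genotypes (x axis). Open circles are untreated BMDCs, filled circles are BMDCs treated with c-di-GMP, and bars are the authors' intervals. The filled circles stand well above the open ones for *Nfkb2*, *Nfkbib* and *Tnfaip3* in WT and *Irf1*-/- BMDCs and BMDCs labelled *Irf3/7*-/- but not in *Tmem173*-/- BMDCs, and *Nfkbiz* reaches 22.3 FPKM in treated BMDCs labelled *Irf3/7*-/-.

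The first question was which NF-κB genes c-di-GMP induced in WT BMDCs. In WT BMDCs 4 of the 10 genes rose more than 2-fold, namely *Nfkb2*, *Nfkbib*, *Nfkbiz* and *Tnfaip3*, and none fell. Among all genes tested in this comparison 10.5% were called higher and 9.96% lower. The median log2 change of the 10 was 0.91, beside 0.00 for all genes tested, and all 10 values lay above 0. The intervals of untreated and treated cells did not overlap for 8 of the 10, the exceptions being *Nfkb1* and *Rel*, and over all genes tested 14.1% stood higher without overlap. Between the same conditions the macrophage sum went from 178 to 414 FPKM and the neutrophil sum from 4015 to 1905 FPKM. Not all genes of these sums moved with them. Of the macrophage genes, *Cd14* (18.5 to 181 FPKM), *Cd68* (75.4 to 148), *Mertk* and *Emr1* rose, while *Csf1r* (54.3 to 48.6) and *Mrc1* (9.52 to 0.721) fell. Of the neutrophil genes, *Ngp* (93.4 to 104) and *Camp* (18.8 to 37.0) rose, while the others fell, *S100a8* (2531 to 1105) and *S100a9* (1350 to 643) most in FPKM. The part of these markers in the values of the 10 genes was not tested.

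Of the subunits, *Nfkb2* rose by a log2 change of 1.15 [0.66, 1.63], with 92.7 FPKM untreated (interval 71.3 to 114) and 205 FPKM treated (158 to 253). *Rela*, which encodes the transactivating subunit p65, was at 31.5 and 55.8 FPKM, a log2 change of 0.82 [0.30, 1.33]. *Relb*, the partner of p52, was at 52.4 and 93.4 FPKM, a log2 change of 0.83 [0.27, 1.36]. For both, the treated interval lay above the untreated one but the change was under 2-fold. *Nfkb1* was at 124 and 175 FPKM (0.49 [-0.004, 0.98]) and *Rel*, encoding c-Rel, at 41.6 and 49.2 FPKM (0.24 [-0.29, 0.78]), and in both the intervals overlapped. Thus the precursor gene *Nfkb2* was the only subunit called in WT BMDCs.

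Of the inhibitors, *Nfkbib*, encoding IκBβ, rose by a log2 change of 1.73 [1.25, 2.21], with 40.1 FPKM untreated (31.1 to 49.1) and 133 FPKM treated (102 to 164). *Nfkbia*, encoding IκBα, was at 201 FPKM (138 to 265) and 396 FPKM (277 to 516), and its log2 change of 0.98 [0.33, 1.64] was just under 2-fold. *Nfkbie*, encoding IκBε, was at 68.1 and 116 FPKM, a log2 change of 0.76 [0.27, 1.25]. Hence each of the 3 cytoplasmic IκB genes had a treated interval above its untreated one, and *Nfkbib* had the largest change. Its combined interval lay wholly above 2-fold, and overlapped that of *Nfkbia*. *Nfkbiz*, encoding the nuclear protein IκBζ, rose by a log2 change of 1.39 [0.86, 1.98], with 2.49 FPKM untreated (1.74 to 3.25) and 6.71 FPKM treated (5.12 to 8.30). *Tnfaip3* encodes A20, an enzyme that edits ubiquitin chains and acts upstream of the IκB kinase. It rose by a log2 change of 1.73 [1.21, 2.23], with 34.4 FPKM untreated (26.6 to 42.2) and 114 FPKM treated (85.1 to 144).

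On the GRCm38 build, *Nfkbia* lies on chromosome 12 (55489410 to 55492647, minus strand), *Nfkbib* on chromosome 7 (28758251 to 28767512, minus strand), *Nfkb2* on chromosome 19 (46304320 to 46312385, plus strand), and *Tnfaip3* on chromosome 10 (19000910 to 19015657, minus strand). The locus that the table lists for *Nfkbia* also holds 4 other genes, among them *Ppp2r3c* and *Psma6*, and its intervals were the widest of the 10. *Nfkb2* shares its listed locus with *Psd* and *Nfkbib* with *Gm6537*, so reads of these genes may not be fully told apart. The promoters of 4 of the genes are shown, because 3 of them hold 2 κB matches each, the most in any window found for the 10 genes, and 1 holds none, while the genes behind them all had higher intervals after c-di-GMP in WT BMDCs. Each sequence is the 250 bases before a RefSeq start on GRCm38.p6, read 5′ to 3′ on the strand of the gene, in lower case with every match to the 9-letter κB pattern GGGNNNTTC, on either strand, in capitals.
Nfkbia, chr12:55492648-55492897, minus strand: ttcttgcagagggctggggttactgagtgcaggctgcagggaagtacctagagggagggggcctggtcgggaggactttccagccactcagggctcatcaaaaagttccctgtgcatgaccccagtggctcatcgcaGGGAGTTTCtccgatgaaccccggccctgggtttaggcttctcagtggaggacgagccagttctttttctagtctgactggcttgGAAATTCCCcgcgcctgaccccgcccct
Nfkb2, chr19:46304487-46304736, plus strand: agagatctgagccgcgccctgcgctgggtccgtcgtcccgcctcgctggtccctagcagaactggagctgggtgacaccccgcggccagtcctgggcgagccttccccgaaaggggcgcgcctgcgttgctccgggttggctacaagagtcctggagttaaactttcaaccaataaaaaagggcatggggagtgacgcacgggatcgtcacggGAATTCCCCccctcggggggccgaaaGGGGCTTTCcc
Tnfaip3, chr10:19015411-19015660, minus strand: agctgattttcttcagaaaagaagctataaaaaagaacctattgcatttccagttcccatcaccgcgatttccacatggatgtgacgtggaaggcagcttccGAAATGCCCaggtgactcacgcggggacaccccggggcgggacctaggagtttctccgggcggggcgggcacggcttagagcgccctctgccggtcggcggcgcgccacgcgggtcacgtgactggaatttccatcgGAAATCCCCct
Nfkbib, chr7:28766645-28766894, minus strand: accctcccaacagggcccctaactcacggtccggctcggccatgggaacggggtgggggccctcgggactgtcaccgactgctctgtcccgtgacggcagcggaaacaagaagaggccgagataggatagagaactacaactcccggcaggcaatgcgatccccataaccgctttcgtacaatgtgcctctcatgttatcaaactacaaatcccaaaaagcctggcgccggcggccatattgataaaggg
The first 3 windows hold 2 κB matches each, beginning 113 and 28 bases before the start of *Nfkbia*, 37 and 11 bases before that of *Nfkb2*, and 148 and 11 bases before that of *Tnfaip3*, whereas the *Nfkbib* window holds none. The *Nfkb2* and *Nfkbib* windows lie inside the spans given above for these genes. The *Tnfaip3* window does too, except for its outermost bases, as the span ends at 19015657 and the window at 19015660. The bases before the 5′ ends of the *Nfkb2* and *Nfkbib* spans were therefore not searched, nor were those of *Tnfaip3* past 19015660. RefSeq gave 10 such windows for 7 of the 10 genes, and not for *Nfkb1*, *Relb* and *Nfkbiz*. A κB match was in 9 of the 10 windows, those of *Rel*, *Rela*, *Nfkbie*, *Nfkbia*, *Nfkb2* and *Tnfaip3*, compared with 11.8% of 32851 promoter windows of the same length. Counted by gene, 6 of the 7 with a window had a match. *Nfkb2* and *Tnfaip3* have more than 1 window each, and 2 windows of *Nfkb2* overlap, so the windows are not separate units. An IRF-type match, GAAANNGAA, was in 1 window, that of *Nfkbia*, beside 7.13% of all windows. A GAS-type match, TTCNNNGAA, was in 1 window of *Nfkb2*, beside 7.02% of all windows. No match of one pattern overlapped a match of another. These letters are a description and not a measurement of binding.

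The second question was whether STING was needed. In *Tmem173*-/- BMDCs c-di-GMP moved none of the 10 genes past the call, and over all genes tested 0.046% were called higher and 0.0092% lower, so the 10 shared this with almost the whole table. Their median log2 change was -0.02. *Rel* had the largest value, a log2 change of 0.84 [0.32, 1.37] between 12.5 FPKM (9.20 to 15.8) in untreated and 22.4 FPKM (17.0 to 27.8) in treated cells. Its 2 intervals did not overlap, and it was the only one of the 10 for which this was so. The share of all genes with intervals apart was not computed here. The other 9 changes lay between -0.17 and 0.25. *Nfkbia* was at 191 and 170 FPKM, *Nfkbib* at 24.1 and 22.1, *Nfkb2* at 60.0 and 61.0, and *Tnfaip3* at 20.6 and 24.4 FPKM. In each of these pairs the intervals overlapped.

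Compared with treated WT BMDCs, treated *Tmem173*-/- BMDCs had lower levels of 9 of the 10 genes, at a background of 13.5% of genes called lower and 12.9% called higher. The largest differences were those of *Nfkbib* (22.1 against 133 FPKM, log2 -2.59 [-3.08, -2.10]), *Tnfaip3* (24.4 against 114 FPKM, -2.22 [-2.78, -1.68]) and *Nfkb2* (61.0 against 205 FPKM, -1.75 [-2.25, -1.26]). *Nfkbiz* differed by -1.28, *Nfkbia* by -1.22, *Rel* by -1.13, *Relb* by -1.13, *Nfkb1* by -1.05 and *Nfkbie* by -1.02. *Rela* was at 28.7 against 55.8 FPKM, a log2 difference of -0.95 [-1.51, -0.43] that stayed under 2-fold. The intervals of all 10 genes lay below those of treated WT BMDCs, as did those of 17% of all genes tested. Treated *Tmem173*-/- and WT BMDCs also differed in their summed T and NK cell markers (0.909 against 710 FPKM), neutrophil markers (14533 against 1905 FPKM) and macrophage markers (596 against 414 FPKM), and the part of these in the differences was not tested.

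Part of these differences was present without treatment. Untreated *Tmem173*-/- and WT BMDCs differed in the call for 1 gene, *Rel*, which was at 12.5 FPKM (9.20 to 15.8) against 41.6 FPKM (30.7 to 52.3), a log2 difference of -1.73 [-2.27, -1.18]. Over all genes tested, 5.95% were called lower and 5.04% higher. *Nfkb1* (72 against 124 FPKM, -0.79), *Nfkbib* (24.1 against 40.1, -0.74) and *Tnfaip3* (20.6 against 34.4, -0.74) also had intervals below those of WT BMDCs, at less than 2-fold. The share of all genes with intervals apart was not computed for this comparison. *Nfkb2* was at 60.0 against 92.7 FPKM (-0.63), with overlapping intervals, and *Rela*, *Relb*, *Nfkbia*, *Nfkbie* and *Nfkbiz* lay between -0.18 and 0.03. In the untreated conditions *Rel* was at 37.2 FPKM in *Irf1*-/- BMDCs and at 35 FPKM in BMDCs labelled *Irf3/7*-/-. Untreated *Tmem173*-/- BMDCs had a neutrophil sum of 20003 against 4015 FPKM in WT BMDCs, a macrophage sum of 641 against 178 FPKM, and a T and NK cell sum of 1.01 against 734 FPKM, and the part of these in the level of *Rel* was not tested. Set against the change in WT BMDCs, the change with c-di-GMP in *Tmem173*-/- BMDCs was smaller by more than 2-fold for 5 genes, with log2 differences of -1.85 [-2.54, -1.16] for *Nfkbib*, -1.49 [-2.24, -0.71] for *Tnfaip3*, -1.31 [-2.10, -0.55] for *Nfkbiz*, -1.15 [-2.16, -0.10] for *Nfkbia* and -1.12 [-1.84, -0.40] for *Nfkb2*. The background was 10.4% of genes called lower and 10.5% called higher. *Rela* (-0.92), *Relb* (-0.97) and *Nfkbie* (-0.83) had intervals below 0 and differed by less than 2-fold. *Nfkb1* differed by -0.26 [-0.95, 0.43] and *Rel* by 0.60 [-0.15, 1.35], so their changes in the 2 genotypes could not be set apart.

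**Figure D2:**
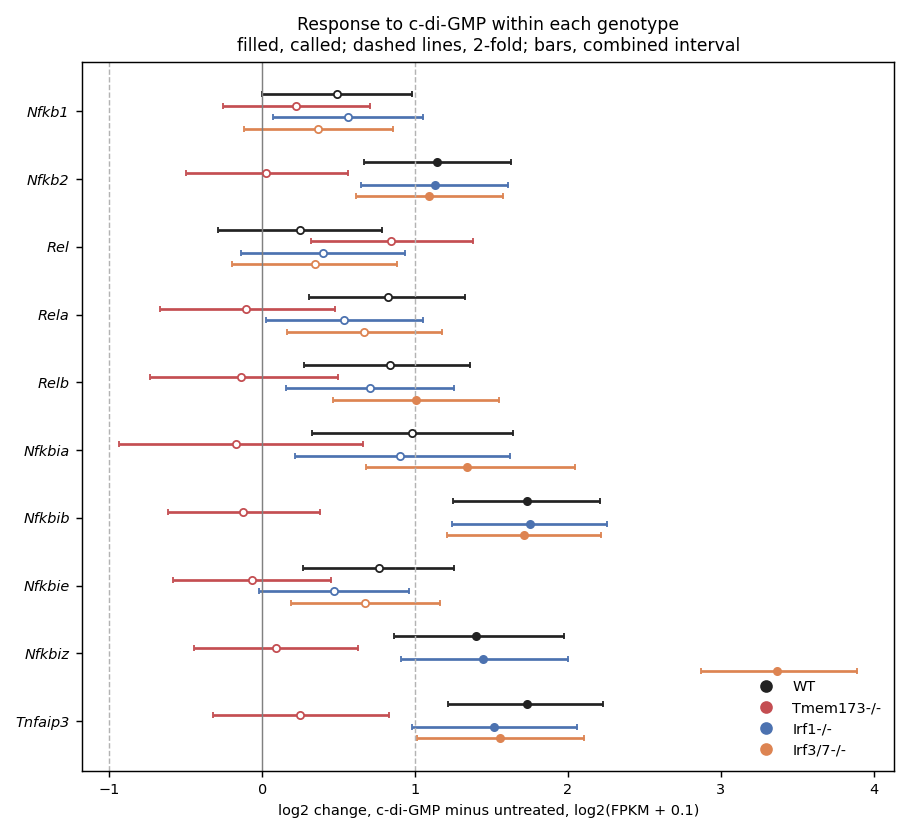
Log2 change with c-di-GMP on the log2(FPKM + 0.1) scale (x axis) of the 10 genes (y axis) within each of the 4 genotypes (colours). Filled points were called, bars are the combined intervals, and dashed lines mark 2-fold. *Nfkb2*, *Nfkbib*, *Nfkbiz* and *Tnfaip3* are filled in WT and *Irf1*-/- BMDCs and BMDCs labelled *Irf3/7*-/-, no point is filled in *Tmem173*-/- BMDCs, and *Nfkbiz* in BMDCs labelled *Irf3/7*-/- lies furthest to the right, at 3.37.

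The third question was whether the transcription factors IRF1, or IRF3 and IRF7, were needed for these genes. In *Irf1*-/- BMDCs c-di-GMP raised 4 of the 10 genes, which were the 4 that rose in WT BMDCs, while 9.67% of all genes tested were called higher and 7.81% lower. *Nfkb2* rose from 98.3 to 215 FPKM (log2 1.13), *Nfkbib* from 33.5 to 113 FPKM (1.75), *Nfkbiz* from 1.42 to 4.04 FPKM (1.44) and *Tnfaip3* from 32.9 to 94.5 FPKM (1.52). *Nfkbia* was at 214 and 400 FPKM, a log2 change of 0.90. *Relb* was at 55.2 and 90.1 FPKM, and *Rela* at 29.3 and 42.5 FPKM. Compared with treated WT BMDCs, none of the 10 genes was called in treated *Irf1*-/- BMDCs, where 4.91% of all genes were lower and 2.65% higher. The log2 differences of 9 genes lay between -0.39 and 0.07 with overlapping intervals. *Nfkbiz* was at 4.04 FPKM (3.03 to 5.05) against 6.71 FPKM (5.12 to 8.30), a log2 difference of -0.72 [-1.22, -0.22], and its intervals did not overlap. It was also at 1.42 FPKM (1.01 to 1.84) against 2.49 FPKM (1.74 to 3.25) without treatment, where the authors' intervals overlapped and the log2 difference was -0.77 [-1.36, -0.16]. Without treatment none of the 10 was called, beside 3.52% of genes lower and 1.26% higher. No change with c-di-GMP was called as different from that in WT BMDCs (2.08% of genes lower, 2.36% higher). The 10 differences between the changes ran from -0.29 to 0.15. The intervals could hold a 2-fold difference for *Nfkbia* ([-1.03, 0.89]) and *Rela* ([-1.01, 0.45]), nearly so for *Nfkbie* ([-0.99, 0.41]), but not for *Nfkb2* ([-0.70, 0.66]). Treated *Irf1*-/- and WT BMDCs differed in their T and NK cell sum (30.6 against 710 FPKM), macrophage sum (148 against 414) and neutrophil sum (1407 against 1905). The part of these in the values of the 10 genes was not tested.

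In BMDCs labelled *Irf3/7*-/- c-di-GMP raised 6 of the 10 genes. The background was 10.2% of genes called higher and 7.68% lower. *Nfkb2* (82.9 to 177 FPKM, log2 1.09), *Nfkbib* (38.3 to 126 FPKM, 1.72) and *Tnfaip3* (40.2 to 118 FPKM, 1.56) were again among them. *Relb* (43.6 to 87.7 FPKM, 1.01) and *Nfkbia* (192 to 486 FPKM, 1.34) were called here and not in WT BMDCs, and the changes in the 2 genotypes differed by 0.17 [-0.58, 0.95] and 0.36 [-0.58, 1.32]. *Nfkbiz* rose 10.3-fold, with 2.07 FPKM untreated (1.5 to 2.65) and 22.3 FPKM treated (17.3 to 27.3).

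*Nfkbiz* was the only gene of the 10 called against treated WT BMDCs, at 22.3 against 6.71 FPKM, a log2 difference of 1.72 [1.24, 2.20]. In this comparison 4.61% of all genes were higher and 2.69% lower, and the other 9 genes lay between -0.27 and 0.29 with overlapping intervals. Its change with c-di-GMP exceeded that in WT BMDCs by 1.97 [1.21, 2.72] on the log2 scale, beside 3.52% of genes called higher and 2.32% lower. Between the treated knockouts, *Nfkbiz* was again the only one of the 10 called, with a log2 difference of -2.44 for *Irf1*-/- BMDCs minus BMDCs labelled *Irf3/7*-/- (6.62% of genes lower, 3.22% higher). In the untreated cells none of the 10 was called against WT BMDCs (0.863% of genes lower, 1.17% higher), and *Nfkbiz* was at 2.07 against 2.49 FPKM. The high level of *Nfkbiz* thus rests on a single condition, the one labelled *Irf3/7*-/- with c-di-GMP, in which *Irf3* was not lower than in WT BMDCs. In the same condition the T and NK cell sum was 2300 FPKM against 710 in treated WT BMDCs, with *Gzmb* at 1242 against 336 FPKM and *Cd3e* at 23.3 against 5.41 FPKM, the macrophage sum was 325 against 414 FPKM, and the sum of 6 basophil and mast cell genes was 252 against 81.5 FPKM. Their part in the level of *Nfkbiz* was not tested.

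**Figure D3:**
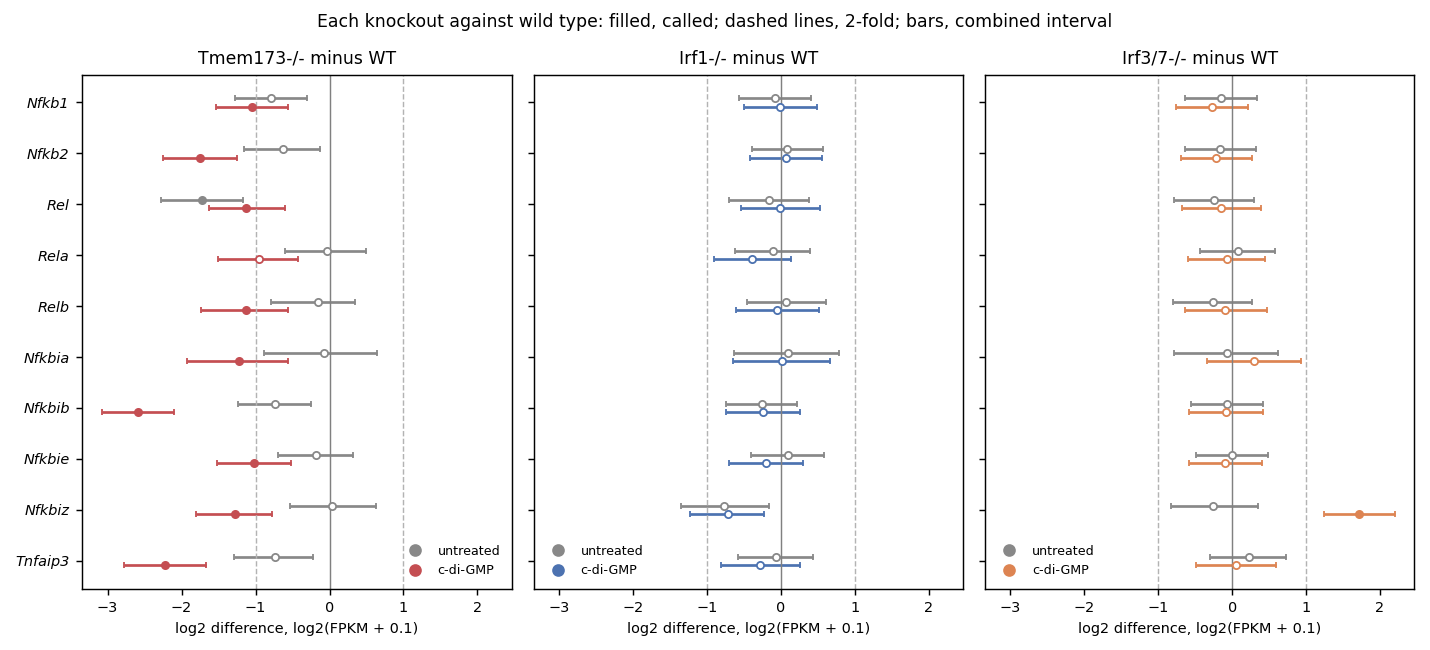
Log2 difference between each knockout and WT BMDCs on the log2(FPKM + 0.1) scale (x axis) for the 10 genes (y axis), untreated (grey) and with c-di-GMP (colour). Filled points were called, bars are the combined intervals, and dashed lines mark 2-fold. In *Tmem173*-/- BMDCs 9 treated points are filled to the left of -1, whereas the single filled point of the other knockouts is *Nfkbiz* in treated BMDCs labelled *Irf3/7*-/-, at 1.72.

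The 10 genes differed in how far they ranged over the 8 conditions. *Nfkbiz* had the widest range, 15.7-fold from lowest to highest condition, followed by *Nfkbib* (6.04-fold) and *Tnfaip3* (5.75-fold), and *Rela* had the narrowest, 1.94-fold. The highest condition was WT with c-di-GMP for *Nfkb1*, *Rel*, *Rela*, *Relb*, *Nfkbib* and *Nfkbie*, *Irf1*-/- with c-di-GMP for *Nfkb2*, and the condition labelled *Irf3/7*-/- with c-di-GMP for *Nfkbia*, *Nfkbiz* and *Tnfaip3*. The 3 highest conditions of each of the 10 genes were treated WT, treated *Irf1*-/- and the treated condition labelled *Irf3/7*-/-, and their intervals overlapped for all but *Nfkbiz*. The lowest condition was one of the 2 *Tmem173*-/- conditions for 9 genes, and untreated *Irf1*-/- for *Nfkbiz*. The share of all genes with such an order or overlap was not computed, so these counts have no background.

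The rest of the pathway was read from 4 lists taken from textbook knowledge. Their counts stand beside a background, over all genes tested, of 10.5% called higher and 9.96% lower in WT BMDCs with c-di-GMP (9.67% and 7.81% in *Irf1*-/- BMDCs, 10.2% and 7.68% in BMDCs labelled *Irf3/7*-/-). Against treated WT BMDCs the background was 12.9% higher and 13.5% lower in treated *Tmem173*-/- BMDCs, 2.65% and 4.91% in treated *Irf1*-/- BMDCs, and 4.61% and 2.69% in treated BMDCs labelled *Irf3/7*-/-. Against untreated WT BMDCs it was 5.04% higher and 5.95% lower in untreated *Tmem173*-/- BMDCs. In untreated *Irf1*-/- BMDCs it was 1.26% and 3.52%, and in untreated BMDCs labelled *Irf3/7*-/- 1.17% and 0.863%. Of 25 kinases and adaptors that lie between receptors and NF-κB, 5 rose and none fell in WT BMDCs, and the list's median log2 change was 0.46. *Traf1*, an adaptor of TNF receptors, rose from 64.2 to 206 FPKM (1.68), *Irak2*, a kinase of Toll-like receptor signalling, from 17.7 to 43.4 FPKM (1.29), and *Traf6*, a ubiquitin ligase, from 16.4 to 37.0 FPKM (1.17). The others were *Map3k8* and *Tbk1*. The same 5 rose in *Irf1*-/- BMDCs, and all of them but *Tbk1* in BMDCs labelled *Irf3/7*-/-. Compared with treated WT BMDCs, those 5 genes were lower in treated *Tmem173*-/- BMDCs and 1 gene was higher, *Irak3*, at 22.4 against 11.1 FPKM (1.0). Without treatment *Irak3* was the only one of the 25 called in *Tmem173*-/- BMDCs, also higher, at 20.3 against 8.07 FPKM. None of the 25 was called in either of the other treated knockouts.

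Of 20 further inhibitors and ubiquitin editors, 4 rose and 2 fell in WT BMDCs, with a median log2 change of 0.28. *Rnf31*, a subunit of the linear ubiquitin ligase complex, rose from 16.6 to 58.8 FPKM (1.82). *Tax1bp1* rose from 66.9 to 180 FPKM (1.43) and *Tnip1* from 40.1 to 108 FPKM (1.43), and both encode adaptors of A20. *Pdlim2*, which encodes a nuclear ubiquitin ligase for p65, fell from 13.6 to 5.36 FPKM (-1.32). *Nfkbil1* also rose and *Nkrf* also fell. In treated *Tmem173*-/- BMDCs 4 were lower than in WT BMDCs, namely *Rnf31* (log2 difference -2.69), *Tax1bp1* (-1.66), *Tnip1* and *Otud7b*, and 2 were higher, *Nkrf* and *Pdlim2*, the latter at 21.7 against 5.36 FPKM. Without treatment *Pdlim2* was the only one of the 20 called in *Tmem173*-/- BMDCs, also higher, at 28.0 against 13.6 FPKM. None of the 20 was called in treated *Irf1*-/- BMDCs or BMDCs labelled *Irf3/7*-/-.

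Of 10 receptors, 3 rose and 2 fell in WT BMDCs. *Cd40*, a costimulatory receptor of the TNF receptor family, rose from 37.0 to 432 FPKM (3.54), *Tnfrsf1b* from 36.6 to 130 FPKM (1.83) and *Tlr2* from 21 to 67.3 FPKM (1.67), while *Tnfrsf13c* and *Il1r1* fell. In treated *Tmem173*-/- BMDCs *Cd40* (10.1 FPKM) and *Tnfrsf1b* (62.3 FPKM) were lower than in WT BMDCs and *Il1r1* was higher. Without treatment *Cd40* (9.82 against 37.0 FPKM) and *Il1r1* were lower in *Tmem173*-/- than in WT BMDCs, and *Tlr2* was higher. In treated *Irf1*-/- BMDCs 3 receptors were lower than in WT BMDCs, *Tlr4* (10.5 against 32.5 FPKM, -1.62), *Tlr2* (24.4 against 67.3 FPKM, -1.46) and *Tnfrsf1b*, and *Il1r1* was higher. Without treatment *Il1r1* was the only receptor of the list called in *Irf1*-/- BMDCs, and it was higher there too. In treated BMDCs labelled *Irf3/7*-/- *Il1r1* was higher and none was lower.

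Of 33 textbook NF-κB target genes, 32 could be tested in WT BMDCs, where 21 rose and 2 fell, with a median log2 change of 1.45. *Ptgs2*, encoding COX-2, rose from 1.28 to 92.1 FPKM (6.06), the chemokine gene *Ccl5* from 796 to 36577 FPKM (5.52), and *Il12b*, encoding IL-12 p40, from 4.59 to 148 FPKM (4.98). *Mmp9* fell from 17.9 to 6.78 FPKM and *Plau* from 89.5 to 38.5 FPKM, and both encode extracellular proteases. In *Tmem173*-/- BMDCs none of 28 targets tested was called with c-di-GMP. Against treated WT BMDCs, 21 targets were lower and 3 higher in treated *Tmem173*-/- BMDCs. Part of this was present without treatment, where 11 of 31 targets tested were lower and 3 higher. *Nos2*, encoding inducible nitric oxide synthase, was at 0.222 against 334 FPKM with c-di-GMP and at 0.102 against 15.2 FPKM without. *Ptgs2* was at 0.195 against 92.1 FPKM with c-di-GMP and at 0.130 against 1.28 FPKM without. The 3 higher with c-di-GMP were *Mmp9* (105 against 6.78 FPKM), *Lcn2* (499 against 160 FPKM) and *Plau* (112 against 38.5 FPKM). Without treatment they were at 106 against 17.9, 613 against 115 and 108 against 89.5 FPKM. *Mmp9* and *Lcn2* are granule genes of neutrophils, whose marker sum was also high in *Tmem173*-/- BMDCs. The part of neutrophils in these levels was not tested. In treated *Irf1*-/- BMDCs 8 targets were lower, among them *Ptgs2* (0.843 FPKM, -6.61) and *Il1b* (113 against 611 FPKM, -2.44), and 2 were higher, *Plau* (144 against 38.5 FPKM) and *Ccl3* (876 against 375 FPKM). Without treatment 4 of 32 targets were lower in *Irf1*-/- than in WT BMDCs and 2 were higher. *Ptgs2* (0.187 against 1.28 FPKM) was among the 4, and *Il1b* (120 against 154 FPKM) was not. In treated BMDCs labelled *Irf3/7*-/- 10 were higher, *Il12b* (1474 against 148 FPKM, 3.32) and *Csf2* (38.8 against 4.93 FPKM, 2.95) most of all, and 2 were lower, *Ccl5* (9788 against 36577 FPKM) and *Il1b* (245 against 611 FPKM). Without treatment 2 of 31 targets were higher in BMDCs with that label and none was lower, and neither *Il12b* nor *Csf2* was called. The comparisons share their WT condition and carry no replicate error, and *Traf1*, *Birc3* and *Cd40* are in 2 lists each. The part of the cell type markers in the differences of the lists was not tested.

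**Figure D4:**
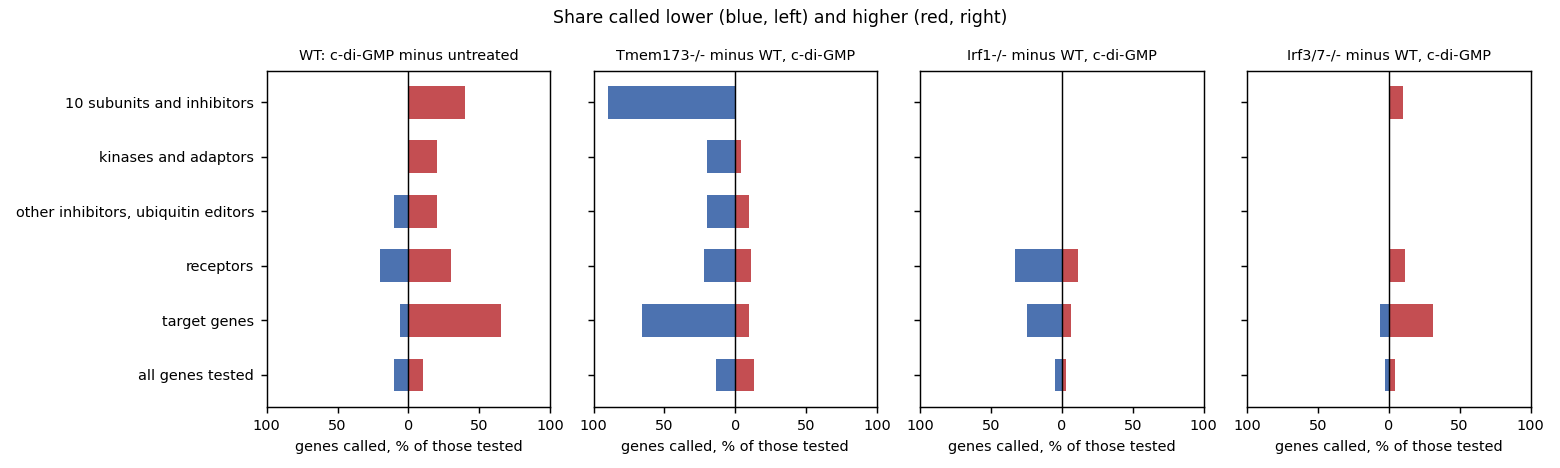
Share of tested genes called higher (red, right) and lower (blue, left), in percent (x axis), for the 10 subunits and inhibitors, 4 pathway lists and all genes tested (y axis), in 4 comparisons (panels). Of the 10 genes 4 are called higher in treated against untreated WT BMDCs and 9 are called lower in treated *Tmem173*-/- against treated WT BMDCs, while 0 and 1 are called in the panels of treated *Irf1*-/- BMDCs and treated BMDCs labelled *Irf3/7*-/-.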

How the data were processed

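RNA-seq libraries were made from mouse BMDCs with a stranded mRNA kit and read in pairs of 35 bases. The authors computed 1 FPKM value with a confidence interval per gene and condition with Cuffdiff (version 1.06 in the submitters' processing notes), pooling the 2 samples of each condition, and deposited these values. The notes name mm9, but the listed loci overlap GRCm38 for 21454 of 21681 genes, so GRCm38 was used. The aligner and the annotation are not given in the sources used here, and an opposing-strand setting is stated for the study's Seqmonk pipeline but not for Cuffdiff. As to c-di-GMP, the labels give the dose printed here, and the paper's legends give a higher one. The column of treated *Tmem173*-/- cells bears an odd spelling of the agent and was read as treated because the other column of that knockout has no suffix. There were 3 columns of values that matched no sample, and these were not used.

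Differences were taken on log2(FPKM + 0.1) with Python 3.11.15, numpy 2.4.6 and pandas 2.3.3 over the whole table. A call required a difference above 2-fold, intervals that did not overlap, a level of 1 FPKM in either condition, and status OK in both. The intervals of conditions compared were combined in quadrature, and a change was called different from that in WT BMDCs when it differed by more than 2-fold with an interval without 0. There were 11 comparisons of conditions and 3 of changes. With 1 value per condition no SD, p-value or adjusted p was computed. A targeted depth is stated in the paper, but the depth reached is unknown: low FPKM values showed no common step of 1 read. At most 3.08% of 1395 low genes fell in one bin of 0.05 on the log2 scale. Between 10733 and 10970 genes reached 1 FPKM per condition, and the interval half-width was near 25% of the level. All 10 genes were named with their values, the targeted genes were named as a check, and of each pathway list the 3 called genes with the largest rise and fall in WT BMDCs and the 2 in each treated knockout were named, where they reached 10 FPKM. *Map3k8*, *Tbk1*, *Nfkbil1*, *Nkrf*, *Otud7b*, *Tnfrsf13c*, *Il1r1*, *Birc3* (for its lists only) and all cell type markers named in the text, among them *Cd74*, *Cd209a*, *Gzmb* and *Cd3e*, were named outside this rule after their values were seen. The values of list genes in untreated knockouts, and those of *Plau* in *Tmem173*-/- BMDCs, were also added outside it. *Otulin* was matched as *Fam105b*. The 10 genes and the lists were chosen with earlier results of these data known. Alternatives were other pseudocounts, filters and fold thresholds, median centring, the fold alone, and the combined interval in place of the overlap rule with the fold threshold kept.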

Additional observations from a re-analysis of the deposited data

Results flagged for a closer look

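For 5 genes the change with c-di-GMP in *Tmem173*-/- BMDCs was smaller than that in WT BMDCs by more than 2-fold with an interval that did not hold 0, and the log2 differences were -1.12 for *Nfkb2*, -1.15 for *Nfkbia*, -1.85 for *Nfkbib*, -1.31 for *Nfkbiz* and -1.49 for *Tnfaip3*. For *Nfkbiz* the change in BMDCs labelled *Irf3/7*-/- was larger than that in WT BMDCs by 1.97 on the log2 scale. With pooled replicates these differences were read against the authors' intervals and were not tested between samples.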

How the results depend on the processing

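Of 106 counts of called genes among the 10, recomputed under other pseudocounts, filters, fold thresholds, median centring, the fold alone, or the combined interval in place of the overlap rule (2-fold kept), 101 stayed within 1.5 times the count reported and 5 moved, all under a fold threshold of 1.5. With that threshold 8 genes rose in WT BMDCs, 1 (*Rel*) rose in *Tmem173*-/- BMDCs, 1 (*Nfkbiz*) was lower in treated *Irf1*-/- than in treated WT BMDCs, 4 were lower in untreated *Tmem173*-/- than in untreated WT BMDCs, and 8 changed less in *Tmem173*-/- than in WT BMDCs, since the lower threshold takes in values already shown. With no fold threshold, the combined interval of the change with c-di-GMP lay above 0 for 8 genes in WT BMDCs. The count was 8 in *Irf1*-/- BMDCs, 8 in BMDCs labelled *Irf3/7*-/- and 1 in *Tmem173*-/- BMDCs. In untreated *Tmem173*-/- against WT BMDCs the combined interval lay below 0 for 5 genes. The share of all genes was not computed at 1.5-fold or with no fold threshold, so these counts have no background. No gene reversed its direction in a called difference. Centring on the condition medians brought *Nfkbia* in WT BMDCs (1.01) and *Rela* in treated *Tmem173*-/- BMDCs (-1.0) past the call. *Nfkbiz* in *Irf1*-/- BMDCs lost its call with a minimum of 5 FPKM, and *Relb* in BMDCs labelled *Irf3/7*-/- (0.99) with a pseudocount of 1 FPKM. No paired analysis was possible because the authors pooled the 2 samples of each condition into 1 value, and for the same reason neither sample could be left out in turn. The paper states a targeted depth per sample, but the depth the libraries reached is unknown.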

Other observations

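Over the 8 conditions the log2(FPKM + 0.1) values of 7382 genes were compared with those of 3 of the NF-κB genes by Pearson's r, as a description of 8 pooled values with no replicates. Closest to *Relb* were *Cacnb3* (0.992), *Bloc1s3* (0.992) and *Cyth1* (0.990). Closest to *Rela* were *Fgfbp3* (0.994), *3110062M04Rik* (0.993) and *Cdc42ep4* (0.991). Closest to *Nfkbiz* were *Optn* (0.993), a gene whose protein binds ubiquitin chains, *Arih2* (0.989) and *Kctd14* (0.988). The level of *Optn* ran from 2.59 to 10.9 FPKM and that of *Nfkbiz* from 1.42 to 22.3 FPKM.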
